A study of Mus musculus with 2 samples.

Results

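The genes described are the Notch receptors Notch1, Notch2, Notch3 and Notch4, the DNA-binding factor gene Rbpj and the direct target genes Hes1, Hey1, Dtx1, Dtx4 and Nrarp. They were taken by name, as every probe set whose single annotated gene symbol is one of them, which gave 10 genes of 18193 and 20 probe sets of 45037. RNA from haematopoietic stem cells, the bone marrow cells from which all blood lineages arise, was compared on Affymetrix expression arrays between mice that lack Wip1 and wild-type mice. There was 1 array from Wip1 knockout mice and 1 array from wild-type mice, both labelled as 3 months of age. Wip1 is the phosphatase encoded by Ppm1d, a negative regulator of p53. The sources used here do not give how the allele was made, the strain, the sort of the cells or the number of animals behind each array. The members were chosen by pathway role, prompted by the higher Notch1 intensity in the knockout on these same arrays, so their differences are given as a description. With 1 array per genotype there is no replicate and no p-value.

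In Notch signalling a receptor on one cell is cut when it meets a ligand of the Delta or Jagged family on a neighbouring cell. The freed intracellular part of the receptor enters the nucleus and binds RBPJ, which otherwise recruits repressors, and together with Mastermind coactivators it switches on target genes. HES1 and HEY1 are transcriptional repressors, DTX1 and DTX4 are ubiquitin ligases of the Deltex family, and NRARP is a small ankyrin-repeat protein that limits the pathway. In blood, Notch1 is best known for commitment of lymphoid progenitors to the T cell lineage in the thymus. The question was whether a higher Notch1 signal in the knockout came with higher target genes.

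RBPJ binds the core letters TGGGAA, and promoters of RefSeq genes (build GRCm38.p6, from 250 bases before to 50 bases after the gene start) were searched for them on both strands. Promoters were at hand for 7 of the 10 members and not for Hes1, Hey1 and Dtx4. The 3 printed here are those of Notch1, the member that differed most, of Nrarp, a target that did not share its direction, and of Rbpj, where the letters occur. Capitals mark TGGGAA or its reverse complement TTCCCA, and the sequences run 5′ to 3′ on the strand of the gene.
Notch1 promoter, chr2:26503773-26504072, minus strand: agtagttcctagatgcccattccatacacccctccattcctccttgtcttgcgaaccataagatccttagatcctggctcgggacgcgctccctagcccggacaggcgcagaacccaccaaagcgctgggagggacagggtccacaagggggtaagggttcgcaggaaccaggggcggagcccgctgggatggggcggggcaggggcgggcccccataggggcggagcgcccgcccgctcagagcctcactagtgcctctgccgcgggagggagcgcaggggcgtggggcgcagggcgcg
Nrarp promoter, chr2:25180508-25180807, plus strand: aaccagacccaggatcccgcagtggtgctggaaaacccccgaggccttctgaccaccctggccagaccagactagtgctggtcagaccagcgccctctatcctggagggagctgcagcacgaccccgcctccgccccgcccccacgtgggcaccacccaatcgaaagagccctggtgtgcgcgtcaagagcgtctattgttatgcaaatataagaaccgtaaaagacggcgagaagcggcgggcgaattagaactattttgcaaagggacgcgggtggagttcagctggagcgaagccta
Rbpj promoter, chr5:53590096-53590395, plus strand: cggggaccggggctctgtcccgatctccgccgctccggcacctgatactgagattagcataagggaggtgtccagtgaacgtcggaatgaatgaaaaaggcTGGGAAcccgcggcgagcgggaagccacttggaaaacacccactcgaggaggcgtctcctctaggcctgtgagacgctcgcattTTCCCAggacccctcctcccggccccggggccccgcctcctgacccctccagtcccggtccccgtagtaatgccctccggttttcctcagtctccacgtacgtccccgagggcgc
The Rbpj promoter held the letters on the plus strand from 149 bases before the gene start and on the minus strand from 65 bases before it. A second annotated start of Rbpj has a promoter that overlaps this one and holds the nearer of these matches again. No match lay in the windows of Notch1, Notch2, Notch3, Notch4, Dtx1 or Nrarp. Among 32851 promoters of all genes 25.6% held TGGGAA, and 6.38% held the longer GTGGGAA, which contains it and which no member's window held. The promoter of Notch1 held 23 CG pairs, that of Nrarp 21 and that of Rbpj 26, against a median of 7 over all promoters.

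Values are the deposited intensities, on a linear scale and in arbitrary units. Each difference compares a probe set only with itself on the other array. Sums given for marker lists add the brightest probe set of each analysed gene, so bright genes weigh most in them. A probe set counted as detected if its value on either array exceeded that array's median over all probe sets, which was 25.9 on the knockout array and 25.2 on the wild-type array. This kept 13 of the 20 member probe sets and 8 of the 10 genes. Differences are log2 knockout minus wild type, after a common shift of -0.01 was removed. An error can be had only from how far probe sets of the same gene disagree. Their SD was 0.22 on the log2 scale, over the 5084 genes that had 2 or more detected probe sets, and no variation between animals or arrays enters it.

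**Figure D1:**
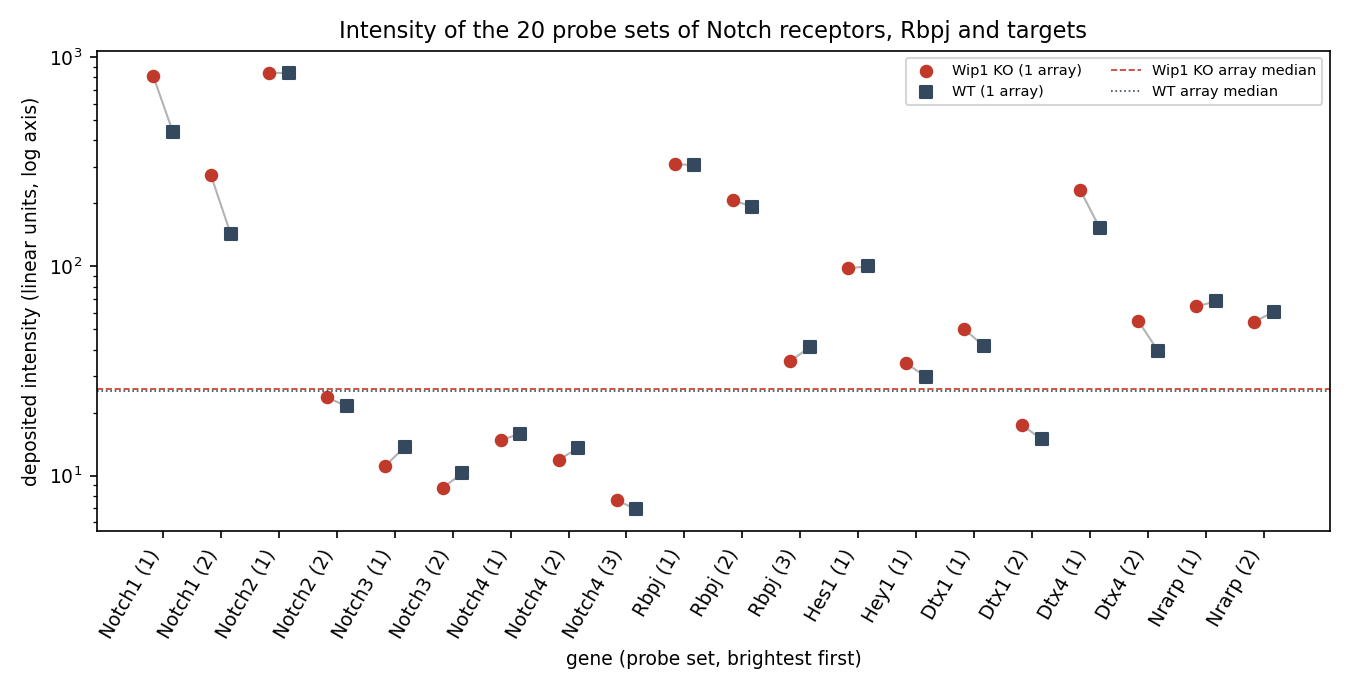
Deposited intensity (log axis) of the 20 member probe sets, with the Wip1 knockout array as red circles to the left of the wild-type array as dark squares, and each array's median as a broken line. Both Notch1 probe sets and both Dtx4 probe sets were higher in the knockout, while every probe set of Notch3 and Notch4 lay under both medians.

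Notch1 was higher in the knockout in both of its probe sets. Probe set 1418634_at had an intensity of 816 in the knockout, against 441 in the wild type. Probe set 1418633_at had 272 in the knockout, against 143 in the wild type. These are log2 differences of 0.90 and 0.94, or 1.87-fold and 1.92-fold, and they lay 0.04 apart. Both exceed the SD between probe sets, and both probe sets were above the 75th percentile of either array. By its brighter probe set Notch1 ranked 70 from the top among 11440 detected genes, of which 0.603% had a higher difference. It was 1 of 30 genes, of 5084 with at least 2 detected probe sets, in which every detected probe set was at least 1.5-fold higher (0.590%). In a bulk sample, more cells that express a gene and more RNA per cell cannot be told apart.

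Of the other receptors, Notch2 differed little and Notch3 and Notch4 were too dim to compare. Notch2, which is also present on stem cells and is required for marginal zone B cells, had an intensity of 844 in the knockout and 838 in the wild type by probe set 1455556_at, a log2 difference of 0.02. Its other probe set, 1451889_at, lay under both array medians, with 23.7 in the knockout and 21.5 in the wild type. Notch3, a receptor of thymocytes and vascular smooth muscle, read 11.1 and 8.75 in knockout cells, against 13.7 and 10.3 in wild-type cells. Notch4, a receptor of endothelium, read 14.7, 11.9 and 7.63 in knockout cells, against 15.9, 13.6 and 6.90 in wild-type cells. No difference is given for Notch3 and Notch4, since all 5 of their probe sets lay under the medians of both arrays.

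Rbpj, through which every Notch receptor acts on DNA, differed by less than this SD in each of its 3 probe sets. Probe set 1454896_at had 310 in the knockout and 304 in the wild type, a log2 difference of 0.04. Probe set 1448957_at had 207 in the knockout and 193 in the wild type (0.12). The dim probe set 1418114_at had 35.2 in the knockout and 41.2 in the wild type (-0.21), so the probe sets differed in sign. RefSeq lists 3 pseudogenes of Rbpj in the mouse, and the sources used here do not say whether any of the probe sets also reads them.

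Of the direct targets, Dtx4, Dtx1 and Hey1 were higher in the knockout and Hes1 and Nrarp were not. Dtx4 was the target that differed most. Its probe set 1436545_at had 232 in the knockout, against 152 in the wild type. Its probe set 1455711_at had 55.0 in the knockout, against 39.6 in the wild type. The log2 differences of 0.62 and 0.49, or 1.54-fold and 1.40-fold, were both beyond the SD between probe sets. The call past 1.5-fold rested on the brighter probe set, and the median of both was 0.55.

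Dtx1 and Hey1 were slightly higher at dim intensities. Dtx1, the Deltex gene induced by Notch1 in thymocytes, had 50.1 in the knockout and 41.5 in the wild type by probe set 1425822_a_at, a log2 difference of 0.28. Its other probe set lay under both array medians, with 17.4 in the knockout and 14.9 in the wild type. Hey1 had 34.3 in the knockout and 29.7 in the wild type by its only probe set, a difference of 0.22, about the size of the SD between probe sets and close to the array medians.

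Hes1 and Nrarp, targets commonly used to read Notch activity, were not higher. Hes1 had an intensity of 97.9 in the knockout and 100.1 in the wild type by its only probe set, 1418102_at, a log2 difference of -0.02. Nrarp had 64.4 in the knockout and 68.0 in the wild type by 1417985_at (-0.07), and 54.3 in the knockout and 60.7 in the wild type by 1417986_at (-0.15). All 3 differences are smaller than the SD between probe sets, and 1 array per genotype does not show that these genes were equal.

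**Figure D2:**
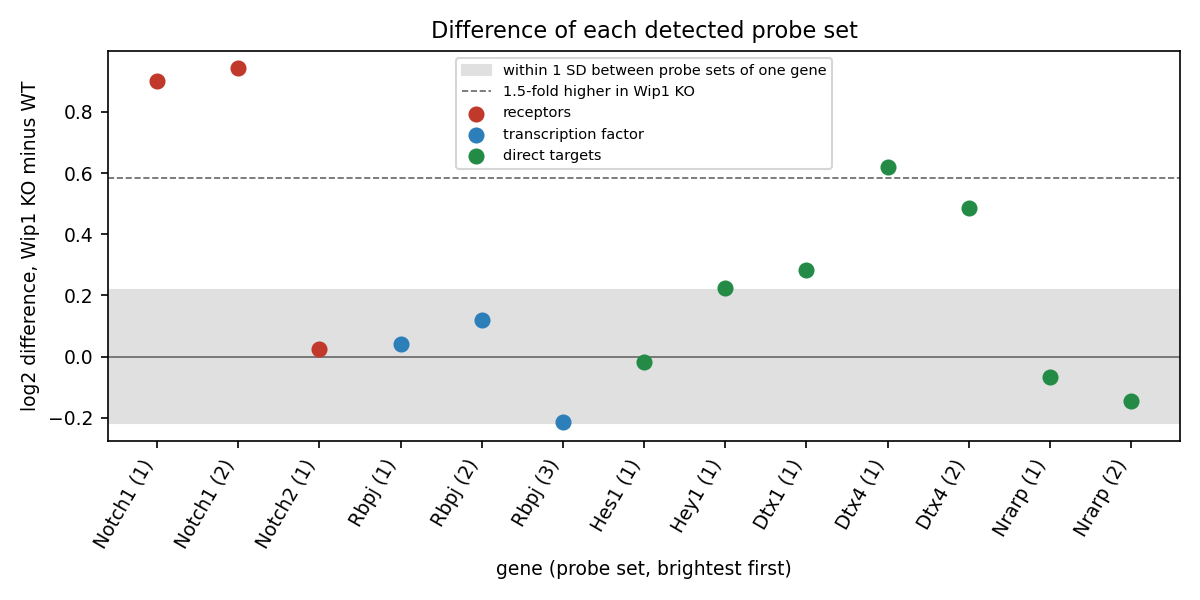
Log2 difference, Wip1 knockout minus wild type, of each of the 13 detected member probe sets, coloured by role, with the probe set SD of 0.22 as a grey band. Notch1 stood at 0.90 and 0.94 and Dtx4 at 0.62 and 0.49, while Notch2, Rbpj, Hes1 and Nrarp lay within the band.

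With each gene represented by its brightest probe set, 3 of the 5 direct targets were higher and 2 lower. Their differences ran from -0.07 for Nrarp to 0.62 for Dtx4. Of all 11440 detected genes, 5453 were higher, 5716 lower and 271 held the same deposited value on both arrays. A count over 5 genes cannot set the targets apart from this background. The median log2 difference of the direct targets was 0.22, against 0.00015 over all 11440 detected genes and 0.90 for Notch1. Without Dtx4 the median of the other 4 targets was 0.10. The median was 0.09 when probe sets designed to match several transcripts (suffixes _a_at, _s_at and _x_at) were dropped, which removes Dtx1, 0.14 with each array's median added as an offset, and 0.64 with a floor at the 75th percentile, where Dtx4 was the 1 target detected. Of the 8 detected members 2, Notch1 and Dtx4, were at least 1.5-fold higher, a size that 2.30% of detected genes reached. The higher Notch1 intensity prompted the choice of members, so its place in this count was known beforehand. No member was at least 1.5-fold lower (1.55% of detected genes) and none reached 2-fold higher (0.455%) or lower (0.210%). The same offset brought Dtx4 to 0.54, under 1.5-fold, and left Notch1 as the only member past it.

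The spread of differences varied somewhat with brightness. In 4 equal bins of the 19906 detected gene probe sets, ordered from dim to bright by mean log2 intensity, the SD of the difference was 0.28, 0.31, 0.29 and 0.25. The shares at least 1.5-fold higher were 3.66%, 4.48%, 2.53% and 1.59%. The brighter Notch1 probe set lay in the brightest bin. The dimmer Notch1 probe set and the brighter Dtx4 probe set lay in the third, those of Hes1 and Nrarp in the second, and those of Hey1 and Dtx1 in the dimmest.

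**Figure D3:**
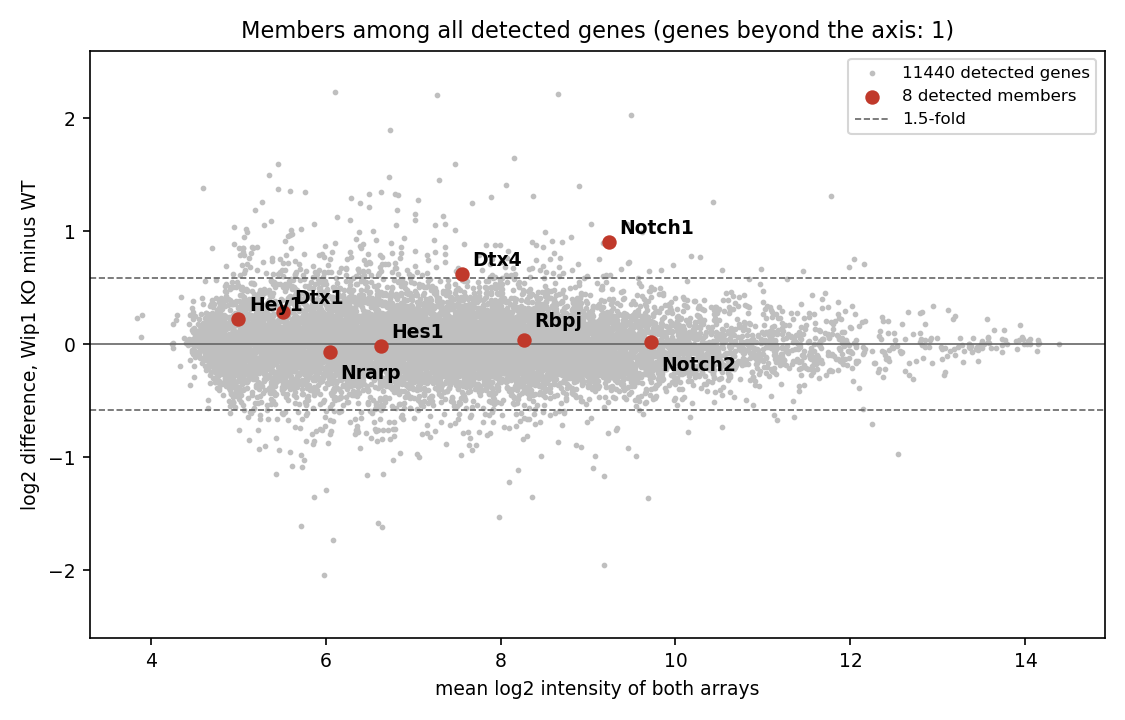
Log2 difference, Wip1 knockout minus wild type, against mean log2 intensity for 11440 detected genes (grey, 1 gene beyond the axis) and the 8 detected members (red), each by its brightest probe set. Notch1 and Dtx4 lie above the line of 1.5-fold, and the other 6 members lie among the bulk of genes.

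Other genes of the pathway showed no shared direction. Genes with the same deposited value on both arrays are counted here as neither higher nor lower. By this count 5453 of the 11440 detected genes were higher, 5716 lower and 271 identical. Of 77 pathway genes listed in 6 groups, 71 were analysed and 64 detected, of which 31 were higher, 31 lower and 2 identical, with a median of 0.0061. By its brightest probe set none was at least 1.5-fold higher, against 2.30% of detected genes. Other probe sets did pass 1.5-fold in Bcl2 (5 probe sets from -0.07 to 1.00), Ccnc (-0.38 to 0.88) and Hdac2 (3 probe sets from -0.22 to 0.70). By brightest probe set 1 gene was at least 1.5-fold lower, against 1.55%, the ligand gene Dll1. Its intensity was 22.3 in the knockout, under the array median, against 39.9 in the wild type, so its difference of -0.61 is a bound.

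Ligand genes were dim. Of 7 ligand genes 2, Dll4 and Jag2, lay above the medians of both arrays, and each differed by -0.17 in its brightest probe set. The other detected probe set of Jag2 differed by 0.22, so its probe sets differed in sign. Dll1 and Jag1 passed only through the wild type, and the atypical ligand gene Dlk1 only through the knockout, so the filter fixed their direction. Their bounds were -0.61, -0.14 and 0.18. Dll3 and Dner lay under both medians. Ligands on other cells of the marrow were not measured.

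Genes that modify and cut the receptor had a median of 0.0085 over 13 detected members, 7 higher and 6 lower. Adam17, a metalloprotease that can shed the receptor ectodomain, had 272 in the knockout and 224 in the wild type, with differences from 0.29 to 0.35 in 3 probe sets. Furin, the convertase that processes the receptor precursor, had 189 in the knockout and 232 in the wild type (-0.29). Aph1a, a subunit of gamma-secretase, differed by 0.20, with its 3 probe sets from -0.01 to 0.24.

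Nuclear cofactors went both ways. The coactivators had a median of 0.03 over 6 detected genes, with Crebbp, a histone acetyltransferase, at 0.26 (0.09 to 0.26 in 4 probe sets), Kat2b at 0.18 and Kat2a at -0.16. The corepressors had a median of -0.01 over 11 detected genes, 5 higher and 6 lower. Among them the Groucho-family gene Tle1 had 74.0 in the knockout and 96.0 in the wild type (-0.36). Ctbp2, a corepressor that binds in RBPJ repressor complexes, had 375 in the knockout and 474 in the wild type (-0.32 and -0.33 in 2 probe sets). Tle4 differed by 0.28, with 0.01 in its other probe set, the value that centring gives to identical intensities.

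Genes of receptor endocytosis and turnover went both ways over 15 detected genes, 7 higher and 7 lower, and Fbxw7 had the same deposited value of 173 on both arrays. Dtx3, a further Deltex gene, had 436 in the knockout and 345 in the wild type (0.35). The ubiquitin ligase gene Neurl1a differed by -0.38, but its 4 probe sets ran from -0.38 to 0.28. Ccnc, the cyclin partner of the kinase CDK8 that marks the intracellular domain for degradation, differed by -0.38 in its brightest probe set and 0.88 in the other. Dtx2 and Dtx3l, named after their values were seen because they belong to the same family as Dtx1 and Dtx4, differed by 0.23 and 0.19. The 5 Deltex genes measured differed by 0.19 to 0.62, with Dtx3l under the SD between probe sets. They were grouped as a family after these values were seen, so their common direction is only a description.

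Further genes known as Notch targets in one cell type or another had a median of -0.03 over 14 detected genes, 6 higher and 7 lower. Tcf12 had the same deposited value of 805 on both arrays by its brightest probe set, but its 4 probe sets reached up to 0.40. One of the higher genes, Bcl11b, passed only through the knockout. Myc, the growth regulator that Notch1 induces in T cell leukaemia, had 789 in the knockout and 573 in the wild type (0.48, by its only probe set). Gata3, a T lineage factor, had 58.1 in the knockout and 81.3 in the wild type (-0.47). Id3, an inhibitor of E proteins, had 203 in the knockout and 283 in the wild type (-0.47). Ptcra and Il2ra, which Notch1 induces in early thymocytes, and the Hes1 relatives Hey2 and Heyl lay under both array medians. The Hes genes on this list, named after their values were seen, differed by 0.07 for Hes5, 0.36 for Hes6 (-0.08 in its other probe set) and -0.06 for Hes7.

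**Figure D4:**
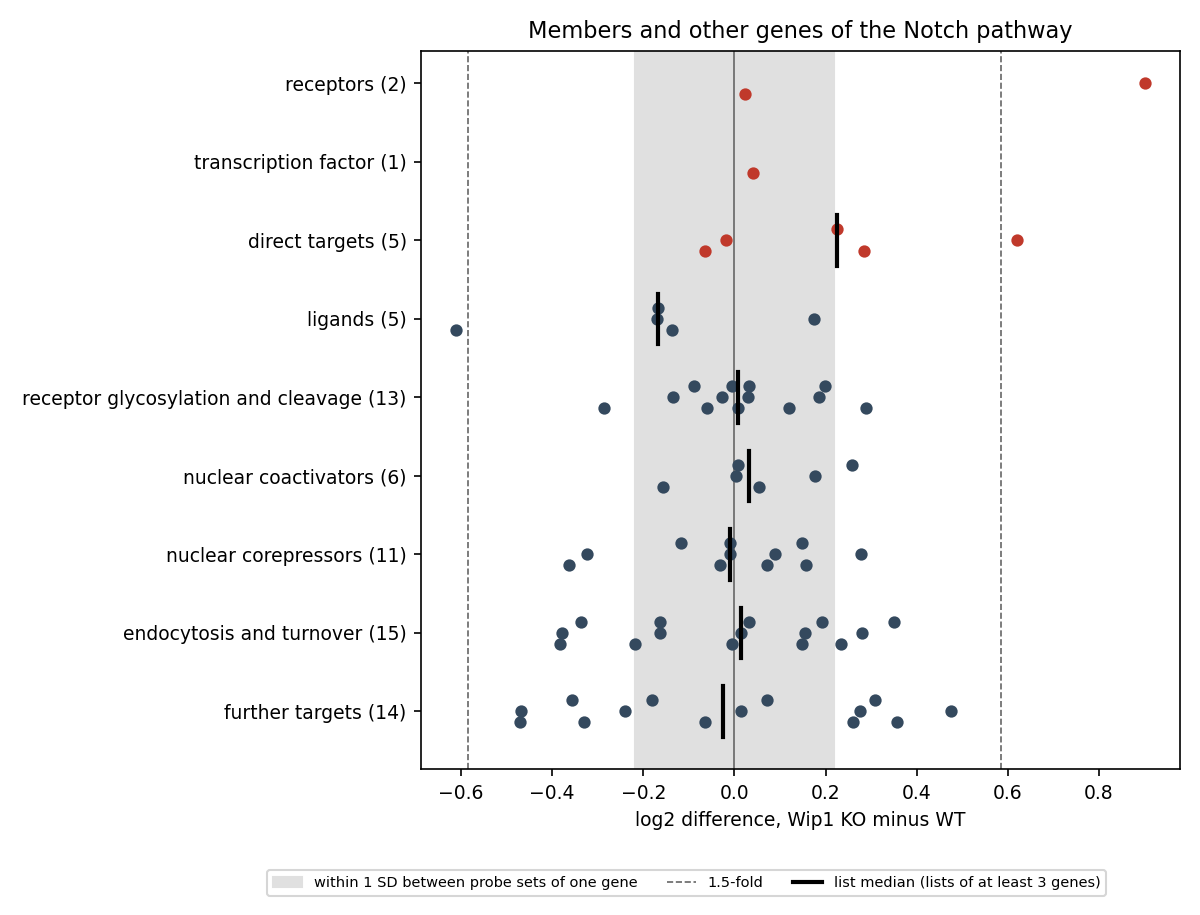
Log2 difference, Wip1 knockout minus wild type, of the members (red) and of other detected genes of the Notch pathway (dark) by role, with the number of genes in brackets, list medians as black bars and the SD of 0.22 between probe sets as a grey band. Each gene is drawn by its brightest probe set. Medians of the 6 pathway groups lie between -0.17 and 0.03, and Notch1 lies to the right of every other gene drawn.

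Genes with a difference most like that of Notch1 were sought among 3882 genes above the 75th percentile on both arrays with at least 2 detected probe sets, by the median difference over probe sets. The nearest to the 0.92 of Notch1 were Jakmip1 (0.95, 2 probe sets from 0.83 to 1.07), Tspan2 (0.86, 3 probe sets from 0.24 to 1.12) and Csf1r, the receptor of macrophage colony-stimulating factor (0.98, 3 probe sets from 0.35 to 1.40). This likeness is over 2 arrays. Notch1 lies on chromosome 2 and Ppm1d on chromosome 11. The nearest detected coding genes on either side of Notch1 in the RefSeq order differed by 0.15 for Inpp5e and 0.18 for Sec16a on one side, and by 0.12 for Egfl7 and 0.10 for Agpat2 on the other.

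Markers of lymphoid-primed progenitors differed in the same direction as Notch1, and they were listed with that shift already known. Of 9 analysed markers 7 lay above the medians of both arrays, and all 7 were higher in the knockout, where 5453 of 11440 detected genes were. At least 1.5-fold higher were 5 of them, against 2.30% of all detected genes. Their differences ran from 0.31 for Cd27 to 1.33 for Il7r, with a median of 1.14. Rag1 passed only through the knockout, with a bound of 0.16. The summed intensity of the list was 9501 in the knockout, against 4372 in the wild type. Dntt and Flt3, which define the lymphoid-primed state, had 5492 and 2112 in knockout cells, against 2228 and 892 in wild-type cells, and Rag2 lay under both array medians. B cell markers were higher in 6 of 8 detected genes, one of which, Ebf1, passed only through the knockout, and Pax5 had the same deposited value on both arrays. Their median was 0.27, with summed intensities of 1142 in the knockout and 882 in the wild type. The part of lymphoid-primed cells in the Notch1 difference was not tested.

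T cell markers, which accompany Notch1 in thymocytes, were mostly dim. Of 11 analysed 7 lay under both array medians, namely Cd3d, Cd3g, Cd8b1, Cd5, Cd2, Trat1 and Themis. The summed intensity of the list was 380 in the knockout and 384 in the wild type, and none of its 4 detected genes differed by more than the SD between probe sets. Endothelial markers, which accompany Notch4 in vessels, had a median of 0.12 over 9 detected genes with sums of 1476 in the knockout and 1433 in the wild type, and their defining gene Cdh5 lay under both medians.

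Of 10 analysed markers of the labelled cell type, 9 lay above the medians of both arrays. All 10 analysed stem cell markers were detected, 4 higher, 5 lower and Fgd5 identical, with a median of -0.03 (Hoxb5 passed only through the wild type) and sums of 4531 in the knockout and 4202 in the wild type. Hlf was 1.63-fold higher (1270 in the knockout, 788 in the wild type). Slamf1 differed by -0.66 (144 in the knockout, 230 in the wild type), with its 3 probe sets from -0.66 to -0.13. The directions counted are those of each gene's brightest probe set. Meis1, counted as lower at -0.20, had its other detected probe set at 1.82. Mllt3, counted as higher at 0.05, had 3 probe sets from -0.12 to 0.08. All 7 detected megakaryocyte markers were lower, where 5716 of 11440 detected genes were, and 2 were at least 1.5-fold lower, against 1.55%. Their median was -0.48, with sums of 740.0 in the knockout and 1062 in the wild type. All marker lists were chosen with earlier results of these data known, so their counts are only a description. Of 7 detected erythroid markers 5 were lower (median -0.28, sums of 892 in the knockout and 1053 in the wild type). Of 12 monocyte and neutrophil markers 5 were higher and 7 lower (median -0.02, sums of 15154 in the knockout and 16561 in the wild type), with Csf1r, Ly86, Mpeg1 and Irf8 each at least 1.5-fold higher, against 2.30% of detected genes. The granule genes Mpo (-0.57), Elane (-0.48) and Prtn3 (-0.26) went the other way. The part of these cell types in the member differences was not tested.

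**Figure D5:**
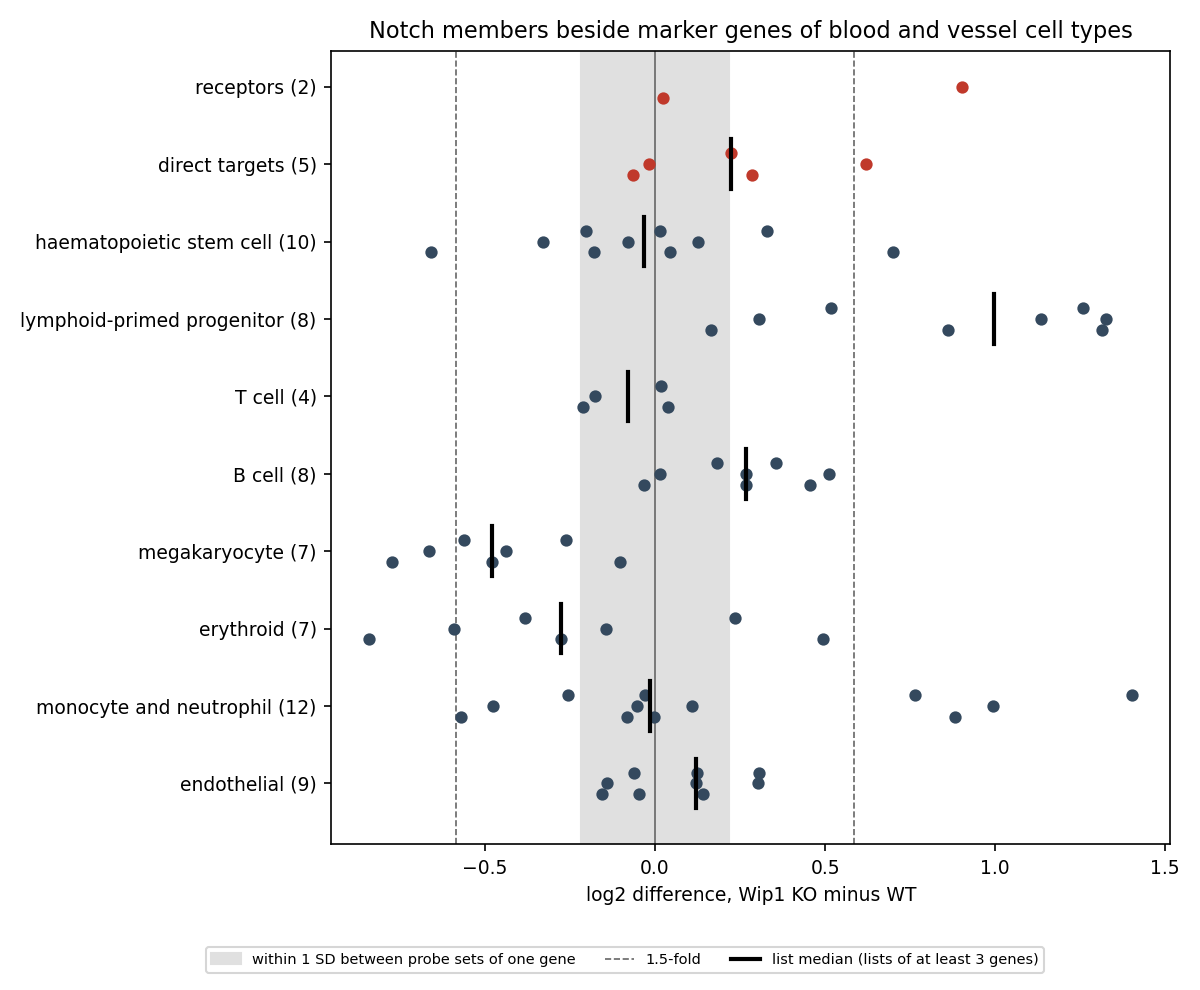
Log2 difference, Wip1 knockout minus wild type, of the Notch receptors and direct targets (red) and of marker genes of blood and vessel cell types (dark), with the number of detected genes in brackets and list medians as black bars. All 8 lymphoid-primed markers lie above 0, Rag1 as a bound, and all 7 megakaryocyte markers below it, while the 4 T cell markers lie within the SD of 0.22 between probe sets.

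The arrays also differed in transcripts that depend on sex, with the Y-linked Eif2s3y at 149 in the knockout against 31.8 in the wild type, and Xist lower in the knockout in each of 3 probe sets (-0.58 to -0.86). Genotype, sex and any other difference between these 2 cell preparations cannot be told apart. Ppm1d itself read 160 in the knockout, against 167 in the wild type, by its brighter probe set (-0.05), and 59.0 in the knockout, against 55.6 in the wild type, by its other one (0.10). Neither shows a loss of the transcript, and since the position of these probe sets relative to the deletion is unknown here, they do not settle the genotype label.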

How the data were processed

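Total RNA was hybridised to 1 array per genotype. For each array the authors deposited a linear intensity value per probe set. MAS5 is the only program given, per the submitters' processing notes; the sources used here do not give the background correction or scaling. A total of 2535 probe sets (5.63%) held the same value on both arrays, none of them a member's. Centring gives these a difference of 0.01, and they are counted as identical. The text says where a gene exceeded the median on only 1 array, which fixes its direction. The method behind the values is not settled.

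The members and gene lists were chosen with earlier results of these data known. Probe sets with a single gene in the platform annotation (34945) were used, and 932 with several genes and 9160 not listed were left out. Symbols were updated through RefSeq gene identifiers, which matched 34741 probe sets. Log2 intensities were centred on the median difference of detected gene probe sets, and values under an array's median were set to it, which turns differences from such values into bounds. Each gene took the values of its brightest probe set. Besides the members, the text names the 3 detected genes with the largest difference in each pathway list and the 3 genes nearest to Notch1, other names being marked or belonging to marker lists. Named genes that are absent from a list were not analysed here. With 1 array per genotype no test was possible, and the number of arrays limits the precision. The procedure was tested on simulated data, with large differences planted only in bright genes and less spread than between these arrays. It does not show how dim genes or small differences, such as those of most targets, are recovered. Alternatives covered scaling, the floor, an offset, probe set choice and the fold. Python 3.11.15, pandas 2.3.3, numpy 2.4.6 and statsmodels 0.14.6 were used.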

Additional observations from a re-analysis of the deposited data

How the results depend on the processing

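A total of 11 alternatives were run, and a value was taken to have moved when it changed by at least the SD of 0.22 between probe sets. The Notch1 difference stayed between 0.86 and 0.94 under the 9 alternatives that bear on it. The median of the direct targets ranged from 0.09, with probe sets of suffix _a_at, _s_at or _x_at dropped, to 0.64. The upper value came from a floor at the 75th percentile, which left Dtx4 as the 1 target detected. The other 8 alternatives moved the median by less than the SD. Since the median of 0.22 is itself about the size of the SD, a fall close to 0 would not have counted as moved. The count of members at least 1.5-fold higher was 2, and it became 1 with the floor added as an offset, 1 with the median over probe sets, and 0 at a fold of 2. No alternative gave a member past the fold in the lower direction. All 111 other values, those of single members and of the pathway lists, moved by less than the SD. For values near 0 this rule says little, since they can change sign within it. The median of the further targets did so, from -0.14 to 0.04. Dtx4 stayed between 0.54 and 0.64, Hes1 between -0.08 and -0.01, and Nrarp between -0.14 and -0.04. Hey1 stayed between 0.14 and 0.22 where it was detected, and Dtx1 between 0.19 and 0.28. No paired analysis was possible because each genotype has 1 array. Dim probe sets limit what can be said of Hey1, Dtx1, Notch3 and Notch4.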
